A study of Homo sapiens with 6 samples.

Results

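Messenger RNA of 40 genes of mitosis and the mitotic spindle was followed in HT-1080 cells given an IRAK4 inhibitor or the solvent alone. The genes were taken by symbol from a list covering mitotic cyclins and kinases, the spindle checkpoint, kinetochores, kinesins, spindle assembly, anaphase onset and cytokinesis. All 40 symbols were among the 20683 in each file, and all 40 passed the filter on low counts that left 11216 genes to test. HT-1080 is an established human fibrosarcoma line, and IRAK4 is a kinase that acts below Toll-like and interleukin-1 receptors. The inhibitor group was 3 samples given the compound with the code name SLV-8472-01 for 24 h, labelled as used at 5 mM, and whether that unit is right was not checked. The DMSO group was 3 samples given 0.1% DMSO for 24 h. Both groups were the same line in serum-containing medium, with no genetic change named, and the series calls the 3 samples of each group biological replicates.

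In a dividing cell, cyclin B bound to CDK1 drives entry into mitosis, Polo-like and Aurora kinases build the spindle, and kinesins and their partners move and hold the chromosomes. The spindle checkpoint holds back the anaphase-promoting complex, a ubiquitin ligase, until every kinetochore is attached. CDC20 then activates that ligase, securin and cyclin B are destroyed, the sister chromatids part, and anillin and PRC1 organise the cut between the daughter cells. Most of these genes are transcribed mainly in late S, G2 and M phase, under the MuvB complex with its partners B-MYB and FOXM1. Their RNA level in a bulk sample therefore follows how many cells are in those phases as well as the level in each cell, and the 2 cannot be told apart here.

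Each library was made with an amplicon panel, which reads every gene through 1 PCR product, so levels were not compared between genes. Library totals ranged from 9469603 to 11909708 counts with the inhibitor and from 9162281 to 13184553 counts with DMSO. The 40 genes together took 0.358% to 0.485% of the counts of a library, and a single member had between 45 and 6433 counts in a library. Levels below are TMM-scaled CPM (counts scaled to a common library size), and fold changes are log2 of inhibitor over DMSO from edgeR. The cells carried the mesenchymal transcripts of the line. The summed level of 10 such markers, vimentin among them, was 10072 to 10338 CPM with the inhibitor and 9639 to 11414 CPM with DMSO, although THY1, a fibroblast surface marker gene, had 1 count in all. The vimentin gene alone reached 6454 CPM in a library, while CD44 and S100A4 reached at most 12.5 and 3.57 CPM. The sum adds genes read through different PCR products, so it serves to compare libraries and not genes. Of 18 epithelial, endothelial and leukocyte markers, 7 had no count in any library (among them CDH1, KRT5, VWF and PTPRC) and no list summed to more than 4.05 CPM. DMSO 3 stood apart from the other controls. The median absolute log2 difference over 9215 genes with a mean count of at least 50 and a known GC content was 0.122 to 0.130 between inhibitor libraries and 0.156 between DMSO 1 and DMSO 2, but 0.317 and 0.248 between DMSO 3 and those 2 libraries. Results are therefore given with and without it.

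Most of the 40 genes had slightly higher levels after the inhibitor, and 2 of them passed the test. CDC20, the activator of the anaphase-promoting complex, and ANLN, which encodes the contractile-ring scaffold anillin, were called higher. No member was called lower. By edgeR's quasi-likelihood test with Benjamini-Hochberg adjustment over all 11216 genes, 1.95% of all genes were called higher and 1.92% lower. The log2 fold change was above 0 for 34 of the 40 members, against 49.4% of all tested genes, and its median was 0.24 over the members, against -0.00438 over all tested genes. It ranged from -0.38 for HMMR to 0.59 for CDC20, with SEs of 0.108 to 0.249. At an unadjusted p under 0.05, 13 members were higher and none lower, against 10.3% and 9.22% of all genes. In 19 members all 3 inhibitor libraries lay above all 3 DMSO libraries, and in none below, against 13.7% and 11.8% of all tested genes. The members share the same libraries and are not independent replicates, so these counts are descriptions.

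**Figure D1:**
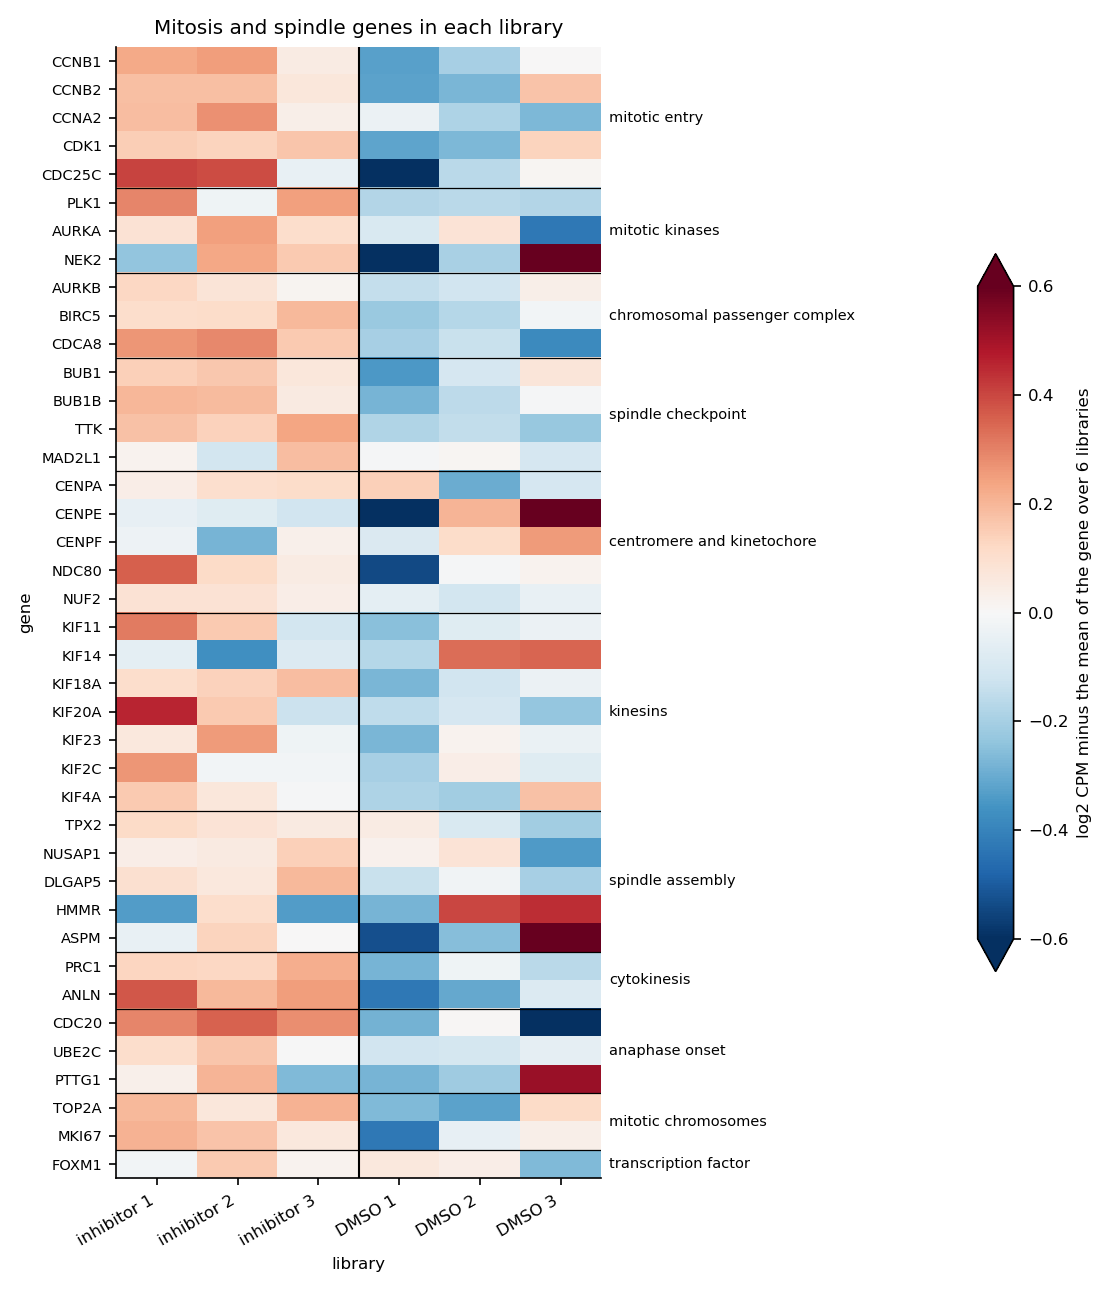
Heat map of the 40 genes (rows, grouped by role) in the 3 inhibitor and 3 DMSO libraries (columns), coloured by log2 CPM minus the mean of the gene over the 6 libraries, with colours saturating at the ends of the scale. The inhibitor columns are mostly red and DMSO 1 is mostly blue, while DMSO 3 mixes strong red (NEK2, CENPE, ASPM, PTTG1) with blue (CDC20, AURKA, NUSAP1, CDCA8).

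Library by library, the median member lay 0.13, 0.14 and 0.05 above its own mean over the 6 libraries (log2 CPM) in inhibitor 1 to 3, against -0.24, -0.11 and -0.04 in DMSO 1 to 3. The median over all tested genes was between -0.0104 and 0.0122 in every library. Of the 40 members, 33, 34 and 29 were above their mean in inhibitor 1 to 3, against 4, 11 and 17 in DMSO 1 to 3. DMSO 1 thus held the lowest levels and DMSO 3 the most mixed ones. The members also varied less among the inhibitor libraries than among the controls, and so did the 9215 genes compared above. Their coefficient of variation had a median of 5.74% and a highest value of 20.3% with the inhibitor, against a median of 11.9% and a highest value of 46.9% with DMSO.

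CDC20 had 126, 131 and 125 CPM in inhibitor 1 to 3, against 84.6, 103 and 65.7 CPM in DMSO 1 to 3. Its inhibitor values were tightly placed and all above the highest control, while the controls spread widely, with DMSO 3 the lowest. The means were 128 ± 3.36 CPM with the inhibitor and 84.5 ± 18.8 CPM with DMSO (SD, n = 3 each), and the log2 fold change was 0.59 (edgeR adjusted p = 0.0439, SE 0.151). Leaving out DMSO 3 gave 0.43 (edgeR adjusted p = 0.00396, SE 0.106).

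ANLN had 492, 434 and 451 CPM in inhibitor 1 to 3, against 282, 307 and 358 CPM in DMSO 1 to 3. The groups did not overlap, and DMSO 3 was the control nearest to the inhibitor libraries. Its means were 459 ± 29.4 CPM with the inhibitor and 316 ± 39.0 CPM with DMSO (SD, n = 3 each), and its log2 fold change was 0.54 (edgeR adjusted p = 0.0252, SE 0.122), or 0.63 (edgeR adjusted p = 2.65e-05, SE 0.0993) without DMSO 3. Both calls were lost when any 1 of the inhibitor libraries or DMSO 1 was left out, and that of ANLN also without DMSO 2, with edgeR adjusted p between 0.0536 and 0.219 and log2 fold changes between 0.46 and 0.61. Fewer of all genes were called higher in those fits too, 0.334% to 1.73%, against 1.95% with all libraries.

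**Figure D2:**
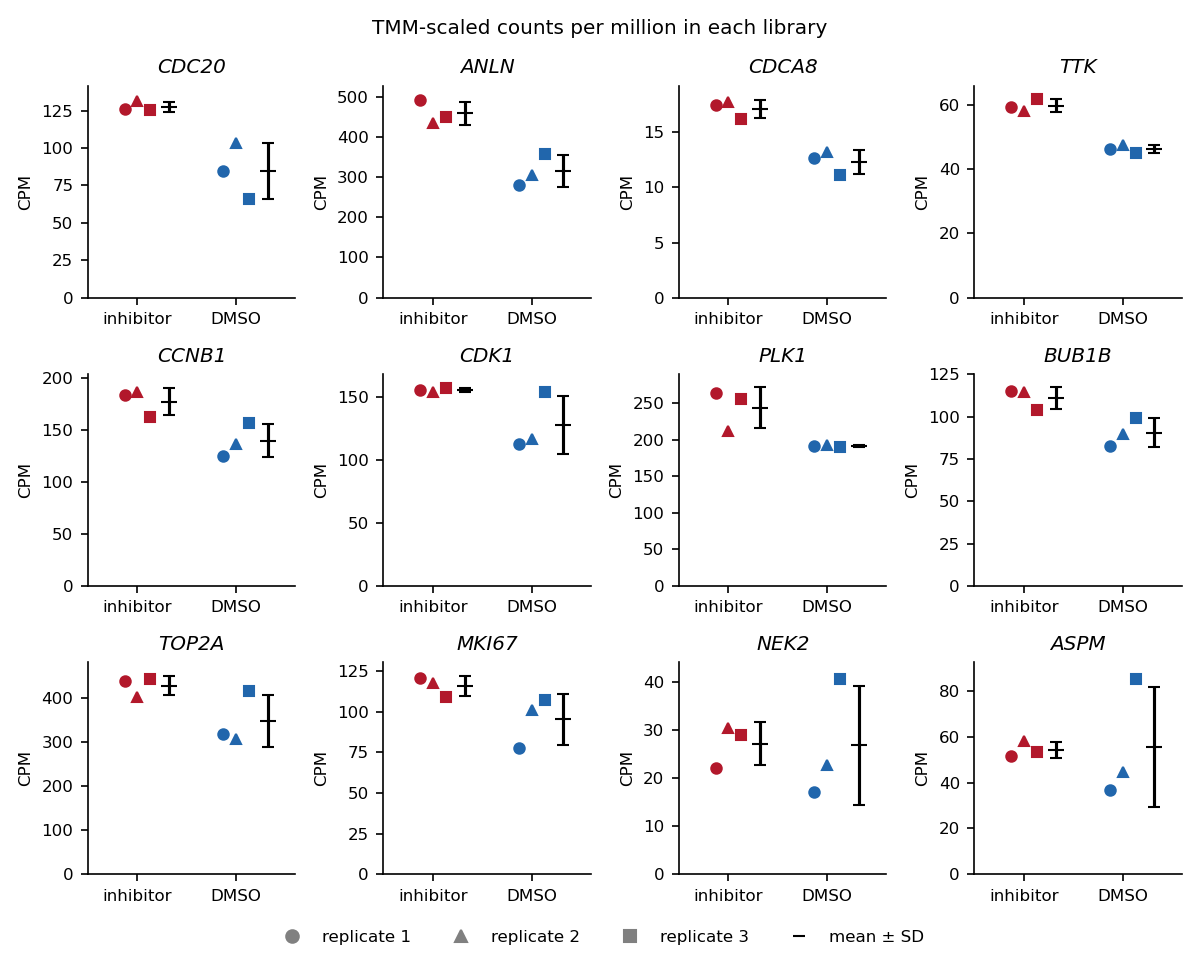
TMM-scaled CPM (vertical axes, each starting at 0) of 12 of the genes in the inhibitor (red, left) and DMSO (blue, right) libraries, with a marker shape per replicate number and the mean ± SD in black. CDC20, ANLN, CDCA8 and TTK show separate groups, while in CDK1, TOP2A, NEK2 and ASPM the DMSO 3 square lies at or above the inhibitor values or close to them.

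The promoters of these genes are shown because genes of this group are known to share cell-cycle promoter elements. RefSeq promoter sequences (build GRCh38.p14, while the files use hg19) were at hand for 34 members, with 40 annotated start sites. Each window ran from 250 bases before to 50 bases after the start. The CHR element (cell cycle genes homology region), through which MuvB complexes bind, was searched as TTTGAA, and the CCAAT box, the site of NF-Y, as CCAAT, both on either strand with overlaps allowed. The sequences below are the 200 bases before the start, read 5′ to 3′ on the strand of the gene, with both motifs in capitals (TTCAAA and ATTGG are the same motifs on the other strand).
CDC20: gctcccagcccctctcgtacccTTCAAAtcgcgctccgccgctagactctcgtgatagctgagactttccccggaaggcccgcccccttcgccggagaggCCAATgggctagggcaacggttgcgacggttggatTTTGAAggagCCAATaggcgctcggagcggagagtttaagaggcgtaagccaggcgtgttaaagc
ANLN: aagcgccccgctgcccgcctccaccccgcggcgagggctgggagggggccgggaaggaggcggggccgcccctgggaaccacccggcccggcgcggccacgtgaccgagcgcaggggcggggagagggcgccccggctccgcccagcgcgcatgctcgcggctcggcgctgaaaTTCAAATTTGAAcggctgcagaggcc
CDCA8: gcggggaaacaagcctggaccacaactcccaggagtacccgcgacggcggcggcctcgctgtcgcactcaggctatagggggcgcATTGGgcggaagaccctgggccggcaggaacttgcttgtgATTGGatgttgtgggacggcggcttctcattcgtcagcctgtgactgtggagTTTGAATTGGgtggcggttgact
PLK1: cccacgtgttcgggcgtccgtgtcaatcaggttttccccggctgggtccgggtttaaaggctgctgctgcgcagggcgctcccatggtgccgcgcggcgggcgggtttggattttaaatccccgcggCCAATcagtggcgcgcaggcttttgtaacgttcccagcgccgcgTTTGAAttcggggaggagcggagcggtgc
CCNB1: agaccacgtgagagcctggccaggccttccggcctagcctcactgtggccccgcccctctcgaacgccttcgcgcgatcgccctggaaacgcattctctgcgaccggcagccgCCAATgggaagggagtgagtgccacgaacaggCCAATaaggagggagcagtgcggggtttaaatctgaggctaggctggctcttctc
CCNB2: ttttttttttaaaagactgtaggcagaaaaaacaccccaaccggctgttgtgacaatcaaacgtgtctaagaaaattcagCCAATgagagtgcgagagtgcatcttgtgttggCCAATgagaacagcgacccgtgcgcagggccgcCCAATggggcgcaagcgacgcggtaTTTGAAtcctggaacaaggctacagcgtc
MKI67: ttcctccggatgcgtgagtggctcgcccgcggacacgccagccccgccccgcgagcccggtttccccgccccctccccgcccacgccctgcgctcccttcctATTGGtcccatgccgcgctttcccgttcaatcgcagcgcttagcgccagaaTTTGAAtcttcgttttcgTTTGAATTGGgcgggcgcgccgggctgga
NEK2: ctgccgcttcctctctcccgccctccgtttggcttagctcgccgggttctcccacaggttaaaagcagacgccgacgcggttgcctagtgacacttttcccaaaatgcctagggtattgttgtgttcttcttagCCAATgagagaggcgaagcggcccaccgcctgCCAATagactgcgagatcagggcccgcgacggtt
ASPM: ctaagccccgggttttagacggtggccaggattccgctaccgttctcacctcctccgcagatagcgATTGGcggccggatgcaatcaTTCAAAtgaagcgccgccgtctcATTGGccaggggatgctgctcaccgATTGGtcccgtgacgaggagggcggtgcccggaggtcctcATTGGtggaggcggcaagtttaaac

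These stretches are chr1:43358781-43358980 (+) for CDC20, chr7:36389662-36389861 (+) for ANLN, chr1:37692316-37692515 (+) for CDCA8, chr16:23678689-23678888 (+) for PLK1, chr5:69166950-69167149 (+) for CCNB1, chr15:59104946-59105145 (+) for CCNB2, chr10:128126424-128126623 (-) for MKI67, chr1:211675622-211675821 (-) for NEK2 and chr1:197146670-197146869 (-) for ASPM. They comprise the 2 called genes, core entry and proliferation genes, and, in NEK2 and ASPM, the 2 members that differed most in DMSO 3. ANLN carried 2 CHR matches head to head, at -26 and -20 from its start, and no CCAAT box in the window. CDC20 carried 2 CHR matches, at -178 and -65, and 2 CCAAT boxes, at -100 and -55, and in CDCA8 and MKI67 a CHR match ran into a CCAAT box on the other strand. CCNB1 and NEK2 had 2 CCAAT boxes and no match to these CHR letters.

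Across the 40 start sites of the members, 27 (67.5%) held a CHR match, against 10.4% of the 12759 starts of tested genes and 15.2% of all 35116 starts. A CCAAT box was present at 32 member starts (80.0%), against 35.1% of starts of tested genes and 34.6% of all starts, and 19 (47.5%) had at least 2, against 12.3% and 10.8%. In the window from -50 to 49, 55.0% of member starts had a CHR match. The shares there were 3.11% of starts of tested genes and 4.62% of all starts. Between -100 and -51, 57.5% of member starts held a CCAAT box, against 15.4% and 12.9%. These matches describe the sequences only. CDC20 and ANLN, the called members, were among the 25 of 34 members with a CHR match. The matches of ANLN lay between -50 and 49, and those of CDC20 further upstream, at -178 and -65. Of these 2 genes only CDC20 held a CCAAT box.

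**Figure D3:**
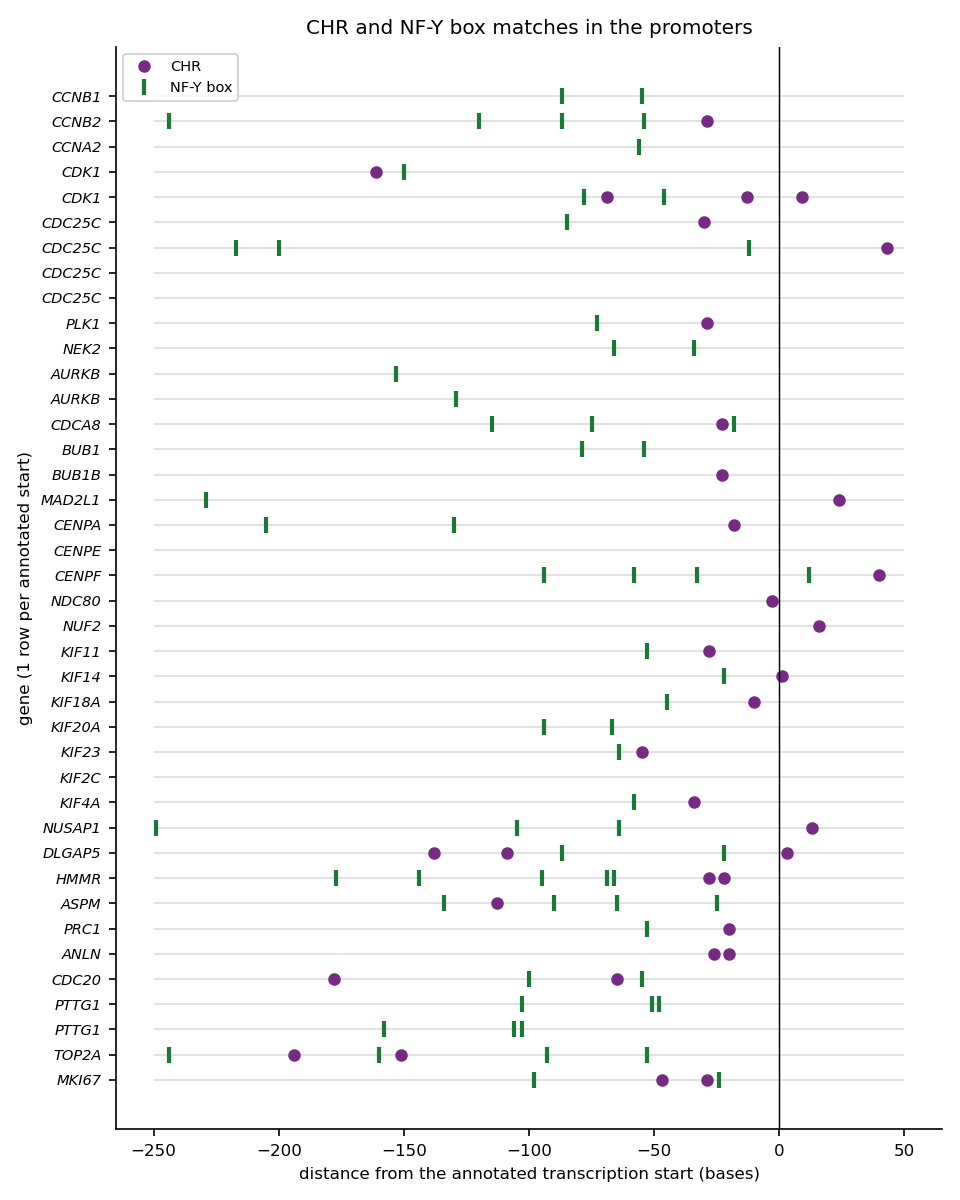
Positions of CHR matches (TTTGAA, circles) and CCAAT boxes (NF-Y, bars) relative to the annotated transcription start (0, horizontal axis in bases), with 1 row for each of the 40 annotated starts of 34 members. A CHR match lies between -50 and 49 at 55.0% of the starts, and at least 1 CCAAT box between -100 and -51 at 57.5%.

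Among the genes of mitotic entry, none of 5 passed, all 5 had a log2 fold change above 0, and their median was 0.33. CCNB1, the cyclin B1 gene, had 183, 186 and 162 CPM in inhibitor 1 to 3, against 125, 136 and 157 CPM in DMSO 1 to 3. The groups did not overlap, and DMSO 3 was the highest control, with a log2 fold change of 0.35 (edgeR adjusted p = 0.142, SE 0.126). CDK1, the mitotic kinase it activates, had 156, 154 and 158 CPM in inhibitor 1 to 3, against 113, 117 and 154 CPM in DMSO 1 to 3. DMSO 3 lay just under the inhibitor values while the other controls were well below, and the log2 fold change was 0.29 (SE 0.135). CDC25C, the phosphatase that activates CDK1, had the lowest counts of the 5, with 7.10, 7.04 and 5.20 CPM in inhibitor 1 to 3, against 3.52, 4.79 and 5.40 CPM in DMSO 1 to 3. Inhibitor 3 lay below DMSO 3, so the groups overlapped, with a log2 fold change of 0.52 (SE 0.217). CCNB2, the cyclin B2 gene, and CCNA2, the cyclin A2 gene, were at 0.27 (SE 0.141) and 0.33 (SE 0.126).

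Of the 3 mitotic kinase genes, none passed, and their median log2 fold change was 0.27. PLK1, a kinase of spindle assembly and mitotic exit, had 264, 212 and 256 CPM in inhibitor 1 to 3, against 191, 193 and 191 CPM in DMSO 1 to 3. The controls were almost equal and all below the inhibitor values, with a log2 fold change of 0.35 (edgeR adjusted p = 0.123, SE 0.121). AURKA, the Aurora kinase of the centrosome, had 25.9, 28.9 and 26.3 CPM in inhibitor 1 to 3, against 22.9, 25.9 and 18.1 CPM in DMSO 1 to 3, with inhibitor 1 and DMSO 2 nearly equal and a log2 fold change of 0.27 (SE 0.151). NEK2, a centrosome-splitting kinase, had 22.0, 30.5 and 28.9 CPM in inhibitor 1 to 3, against 17.0, 22.7 and 40.7 CPM in DMSO 1 to 3. DMSO 3 was higher than every other library and the groups overlapped, with a log2 fold change of 0.03 (SE 0.249).

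In the chromosomal passenger complex, which corrects faulty attachments, none of the 3 genes passed. CDCA8, which encodes the subunit borealin, had 17.5, 17.7 and 16.2 CPM in inhibitor 1 to 3, against 12.7, 13.2 and 11.1 CPM in DMSO 1 to 3. These groups did not overlap and DMSO 3 was the lowest, with a log2 fold change of 0.47 (edgeR adjusted p = 0.0938, SE 0.147). BIRC5, the survivin gene, had 190.0, 191 and 202 CPM in inhibitor 1 to 3, against 151, 157 and 175 CPM in DMSO 1 to 3. Again no value overlapped, at a log2 fold change of 0.27 (edgeR adjusted p = 0.213, SE 0.116). AURKB, the catalytic subunit, had 21.5, 20.8 and 19.95 CPM in inhibitor 1 to 3, against 17.9, 18.3 and 20.2 CPM in DMSO 1 to 3, with DMSO 3 inside the inhibitor range and a log2 fold change of 0.15 (SE 0.136).

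Of 4 spindle checkpoint genes none passed, with a median log2 fold change of 0.27. TTK, the kinase that starts checkpoint signalling at kinetochores, had 59.4, 57.9 and 61.8 CPM in inhibitor 1 to 3, against 46.3, 47.5 and 44.9 CPM in DMSO 1 to 3. Its groups were narrow and apart, at 0.37 (edgeR adjusted p = 0.101, SE 0.118). BUB1B, which encodes the inhibitor BUBR1, had 115, 114 and 104 CPM in inhibitor 1 to 3, against 82.6, 89.7 and 99.6 CPM in DMSO 1 to 3. The groups were apart by a small margin, at 0.30 (SE 0.123). BUB1, a kinetochore kinase, was at 0.24 (SE 0.131), and MAD2L1, which encodes MAD2, the protein that captures CDC20, was at 0.07 (SE 0.121).

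The centromere and kinetochore genes had a lower median, 0.15, and none of 5 passed. NDC80, the microtubule-binding subunit, had 12.2, 10.3 and 9.87 CPM in inhibitor 1 to 3, against 6.56, 9.51 and 9.67 CPM in DMSO 1 to 3. The groups did not overlap, with inhibitor 3 close above DMSO 3, at a log2 fold change of 0.34 (SE 0.188). CENPE, a kinesin motor of the kinetochore, had 12.8, 12.6 and 12.3 CPM in inhibitor 1 to 3, against 8.67, 15.3 and 20.8 CPM in DMSO 1 to 3. The inhibitor values were nearly equal and lay inside a wide control range, so its log2 fold change of -0.23 (SE 0.241) changed to 0.05 (SE 0.178) without DMSO 3. CENPF, a large kinetochore protein gene, was at -0.19 (SE 0.130), CENPA, the centromeric histone gene, at 0.16 (SE 0.139), and NUF2, the partner of NDC80, at 0.15 (SE 0.122).

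Of 7 kinesin genes none passed, 6 had a log2 fold change above 0 and the median was 0.20. KIF20A, a motor of cytokinesis, had 40.6, 33.0 and 27.0 CPM in inhibitor 1 to 3, against 26.6, 27.5 and 25.2 CPM in DMSO 1 to 3. Inhibitor 3 lay inside the control range, and the log2 fold change was 0.34 (SE 0.155). KIF14, which works with citron kinase in cytokinesis, had 17.6, 14.3 and 17.4 CPM in inhibitor 1 to 3, against 16.3, 23.2 and 23.4 CPM in DMSO 1 to 3. It was the kinesin with the lowest log2 fold change, -0.35 (SE 0.170), although DMSO 1 lay inside the inhibitor range. KIF18A, which dampens chromosome movement, was at 0.28 (SE 0.134), and KIF11, the motor that parts the spindle poles, at 0.25 (SE 0.145). KIF23, KIF2C and KIF4A, motors of the midzone and of microtubule depolymerisation, lay between 0.14 and 0.20.

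Of 5 spindle assembly genes none passed, with a median of 0.14. DLGAP5, a kinetochore-fibre protein gene, had 118, 115 and 126 CPM in inhibitor 1 to 3, against 100.4, 109 and 96.1 CPM in DMSO 1 to 3. Its groups were apart, at a log2 fold change of 0.23 (SE 0.118). HMMR, a spindle-pole protein gene, had 5.71, 7.75 and 5.72 CPM in inhibitor 1 to 3, against 5.94, 9.51 and 9.79 CPM in DMSO 1 to 3. Its control values were wide, and at -0.38 (SE 0.221) it had the lowest log2 fold change of all members. ASPM, a spindle-pole gene given for its value in DMSO 3, had 51.5, 58.3 and 53.2 CPM in inhibitor 1 to 3, against 36.9, 44.5 and 85.4 CPM in DMSO 1 to 3. The inhibitor values were above DMSO 1 and 2 and below DMSO 3, leaving a log2 fold change of -0.02 (SE 0.234). TPX2, an activator of Aurora A, was at 0.16 (SE 0.114), and NUSAP1, a microtubule-bundling protein gene, at 0.14 (SE 0.133).

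The remaining members sit at chromosome separation, chromosome structure and transcription. PRC1, the bundler of the spindle midzone and the other cytokinesis gene beside ANLN, had 81.5, 81.2 and 86.7 CPM in inhibitor 1 to 3, against 61.4, 73.2 and 66.6 CPM in DMSO 1 to 3. Its groups did not overlap, at 0.31 (edgeR adjusted p = 0.176, SE 0.122). UBE2C, the ubiquitin-conjugating enzyme of the anaphase-promoting complex, had 525, 548 and 488 CPM in inhibitor 1 to 3, against 451, 454 and 471 CPM in DMSO 1 to 3, at 0.18 (SE 0.108). Its groups were apart by a small margin, unlike those of PTTG1, the securin gene. PTTG1 had 22.2, 25.0 and 18.1 CPM in inhibitor 1 to 3, against 17.9, 18.7 and 31.0 CPM in DMSO 1 to 3, with DMSO 3 the highest of all, at -0.03 (SE 0.203).

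TOP2A, which untangles sister chromatids, had 438, 403 and 443 CPM in inhibitor 1 to 3, against 319, 307 and 415 CPM in DMSO 1 to 3. DMSO 3 exceeded inhibitor 2, and the log2 fold change was 0.30 (SE 0.131). MKI67, the gene of the proliferation marker Ki-67, had 121, 118 and 109 CPM in inhibitor 1 to 3, against 77.8, 101 and 107 CPM in DMSO 1 to 3, which did not overlap, at 0.29 (SE 0.138). FOXM1, the transcription factor of this programme, had 89.5, 101 and 91.7 CPM in inhibitor 1 to 3, against 94.4, 93.0 and 75.3 CPM in DMSO 1 to 3. These values overlapped, and its log2 fold change was 0.10 (edgeR adjusted p = 0.726, SE 0.129), or -0.01 (SE 0.103) without DMSO 3.

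Without DMSO 3, 15 of the 40 members were called higher and none lower by edgeR, against 10.8% and 11.1% of 11386 genes tested. The 15 were ANLN, ASPM, BIRC5, BUB1, BUB1B, CCNB1, CCNB2, CDC20, CDC25C, CDK1, MKI67, NEK2, PLK1, TOP2A and TTK. They included 4 of 5 mitotic entry genes, 2 of 3 mitotic kinase genes, 3 of 4 checkpoint genes and both mitotic chromosome genes, and none of the 7 kinesins or 5 kinetochore genes. In lists outside the members, described below, 11 of 36 other kinetochore and checkpoint genes were called higher and 1 lower in this fit. Of 27 other spindle, centrosome and kinesin genes, 7 were called higher and none lower. Whether the classes differ was not tested. Beside ANLN and CDC20, given above, TOP2A was at 0.44 (edgeR adjusted p = 0.00158, SE 0.0974), CDK1 at 0.43 (edgeR adjusted p = 0.00244, SE 0.100) and CCNB1 at 0.42 (edgeR adjusted p = 0.00334, SE 0.103). Of the other 10, CDC25C was at 0.63, NEK2 at 0.43, CCNB2 at 0.43 and ASPM at 0.40, with edgeR adjusted p from 0.00245 to 0.0387, and NEK2 still overlapped between groups. BUB1B, MKI67, TTK, PLK1, BUB1 and BIRC5 lay between 0.32 and 0.36. The median of the members was 0.28, and 36 of 40 were above 0, against 50.1% of all genes. In 26 members the inhibitor libraries all lay above DMSO 1 and 2, against 25.9% of the genes tested on all libraries. Only 2 controls were left in this comparison, and more of all genes were called too. CDCA8, at 0.39 (edgeR adjusted p = 0.0511), and NDC80, at 0.42 (edgeR adjusted p = 0.0966), were of similar size and not called, and FOXM1, AURKA and MAD2L1 were at -0.01, 0.13 and 0.02.

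**Figure D4:**
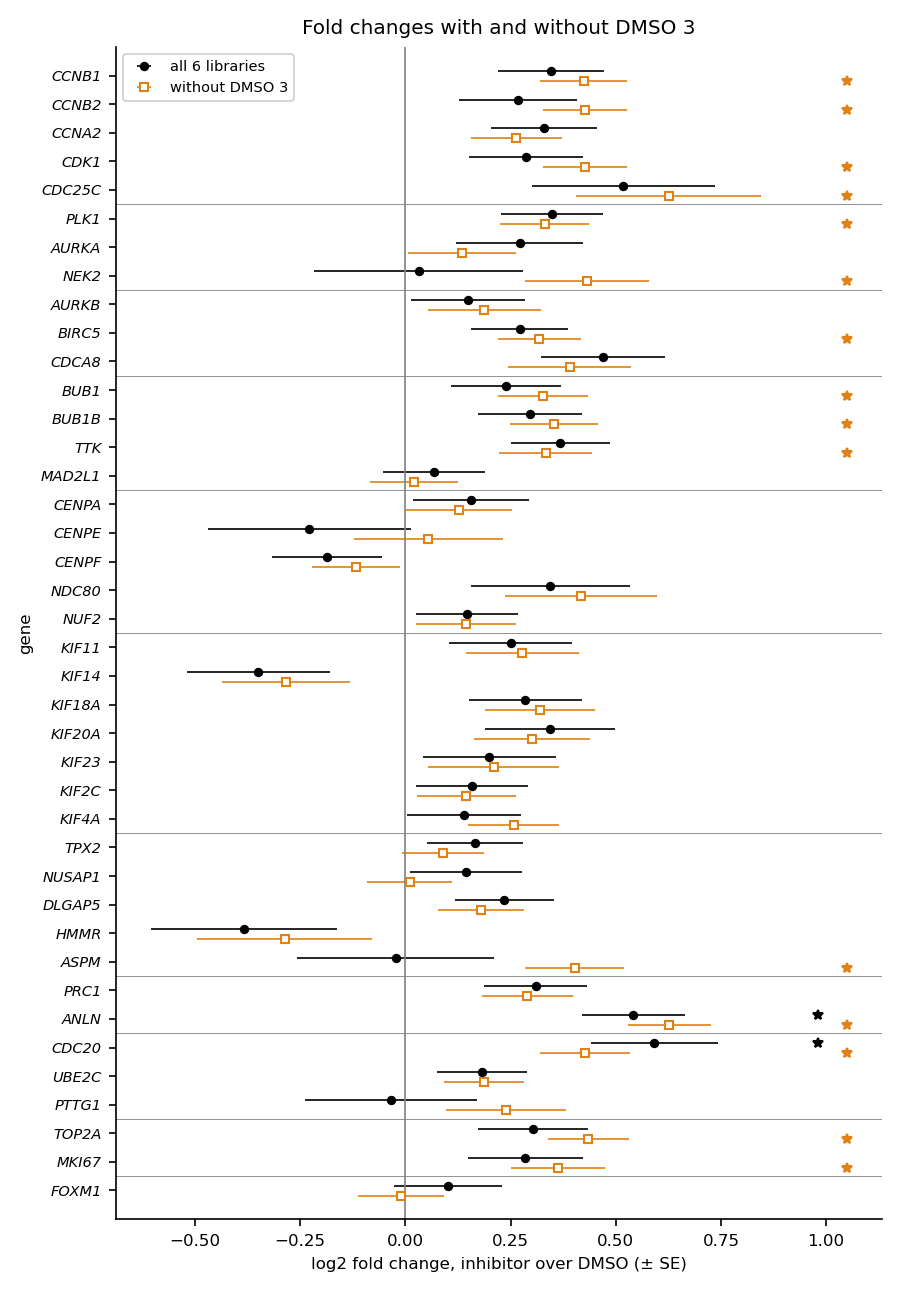
Log2 fold change of inhibitor over DMSO ± SE (horizontal axis) for the 40 genes (rows, grouped by role), with all 6 libraries (black circles) and without DMSO 3 (orange squares), and stars at the right for genes called at an edgeR adjusted p under 0.05. There are 2 black and 15 orange stars, and NEK2, ASPM and PTTG1 shift to the right without DMSO 3.

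In DMSO 3 the members leaned upward, with a median of 0.16 above the mean of DMSO 1 and 2 (log2 CPM), against 0.00628 over 9215 genes. Of the 40, 24 (60%) were higher in DMSO 3 than in both other controls and 12 (30%) lower, against 41.2% of all tested genes in each direction. ASPM and NEK2 were 1.07 and 1.04 above the mean of DMSO 1 and 2 (log2 CPM), CENPE 0.84 and PTTG1 0.76 above it, while CDC20 was at -0.51, AURKA at -0.42 and NUSAP1 at -0.39. This difference moved with the GC content of the annotated transcripts. The sequences of the PCR products were not at hand, so their own GC content was not measured. The transcripts of the members had a median GC content of 44.1%, against 49.2% for all tested genes, and across the 40 members its Spearman correlation with the DMSO 3 difference was -0.392, against -0.491 across 9215 genes. All points share the same 3 libraries and genes are not independent replicates, so these are descriptions. Among the 20 members with the lowest GC content, 35.3% to 43.4%, the median DMSO 3 difference was 0.25 and 15 were above both other controls, while among the 20 with 44.8% to 57.2% it was -0.000736 and 9 were.

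With the GC trend of each library removed, edgeR again called CDC20 and ANLN and no other member, against 3.39% of all genes called higher and 3.20% lower. The log2 fold change of CDC20 was then 0.62 and that of ANLN 0.49. The median of the members was 0.19, with 33 of 40 above 0, against 48.2% of all genes. With that trend removed and DMSO 3 left out, 10 members were called higher and KIF14 lower, against 10.0% and 9.88% of genes, and 9 of the 10 were among the 15 above. ASPM, NEK2, CDK1, BUB1, TTK and CDC25C were no longer called in that fit, and CDCA8 was added. With library quality weights, which give a deviating library less influence, limma-voom called 13 members higher and KIF14 lower, against 12.4% and 10.9% of all genes. Of the 20 members with the lowest GC content, 8 were called higher without DMSO 3 and 3 when the trend was also removed, while of the other 20, 7 were called in each fit. Over all genes of any GC content, 10.8% and 10.0% were called higher in these fits. Shares over all genes by GC content are not given here, and the cause of the difference was not tested.

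**Figure D5:**
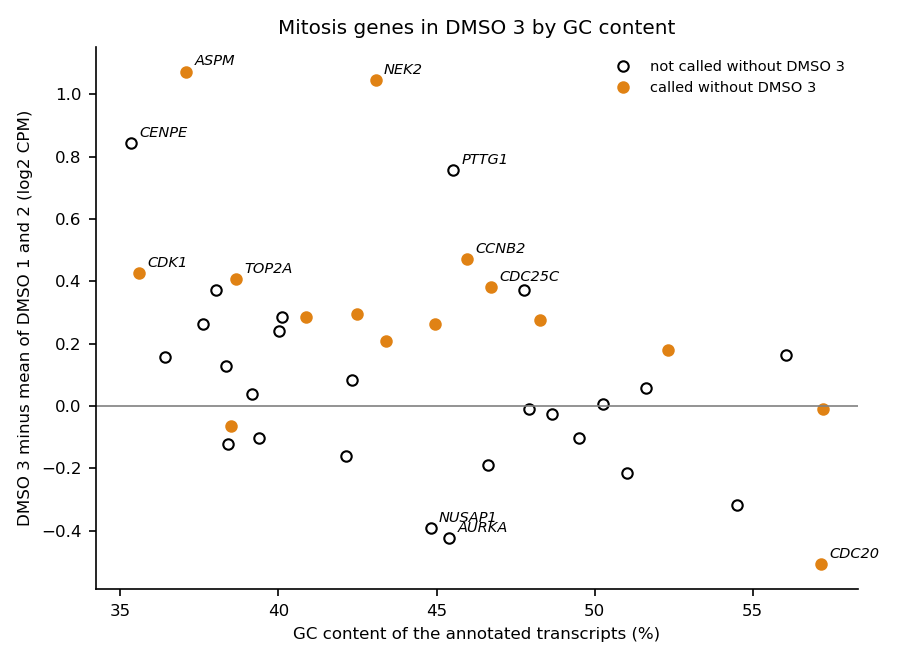
DMSO 3 minus the mean of DMSO 1 and 2 (log2 CPM, vertical axis) against the GC content of the annotated transcripts (horizontal axis, %) for the 40 genes, filled where the gene was called without DMSO 3. ASPM, CENPE, CDK1 and TOP2A are GC-poor and above 0, CDC20 is GC-rich and the lowest, and NEK2 and PTTG1 are high at middling GC content.

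Of 138 tested genes in 7 further lists, 9 were called higher and 1 lower by edgeR, against 1.95% and 1.92% of all genes. Their median log2 fold change was 0.10, and 93 of 138 were above 0, against 49.4% of all genes. The largest rise was that of CDC25A, a CDK-activating phosphatase gene in the list of mitotic entry regulators that also acts at the G1/S transition. It had 22.0, 23.2 and 18.5 CPM in inhibitor 1 to 3, against 7.58, 8.67 and 8.10 CPM in DMSO 1 to 3, with a log2 fold change of 1.39 (edgeR adjusted p = 0.000222, SE 0.158). MASTL, the Greatwall kinase gene of the same list, rose by 0.53 (SE 0.133), and those were 2 of 14 tested.

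Of 20 condensin, cohesin and separase genes 3 rose, among them ESCO2, a cohesin acetyltransferase gene, by 0.73 (SE 0.125) and ESPL1, the separase gene, by 0.61 (SE 0.143). Of 36 other kinetochore and checkpoint genes, CENPI and DSN1, which encode kinetochore subunits, rose by 0.67 (SE 0.170) and 0.55 (SE 0.134). ANAPC7, a subunit of the anaphase-promoting complex, rose by 0.55 (SE 0.141) as 1 of 15 genes in a list that also holds its partners FZR1, UBE2S and FBXO5. STIL, a centriole duplication gene, rose by 0.65 (SE 0.123) as 1 of 27 other spindle, centrosome and kinesin genes. ARHGEF2, an activator of RhoA bound to microtubules, had 51.3, 47.7 and 51.4 CPM in inhibitor 1 to 3, against 107, 96.4 and 97.2 CPM in DMSO 1 to 3. It fell by 1.00 in log2 terms (edgeR adjusted p = 0.000347, SE 0.120), and was the 1 call among 14 cytokinesis genes, of which 2 were called higher and 2 lower without DMSO 3. None of 12 genes of the DREAM, MYBL2 and MuvB complexes passed by edgeR with all libraries, although 1, RBL1, had an unadjusted p under 0.05, and DESeq2 called none. RBL1, which encodes the p107 subunit of DREAM and was singled out after its values were seen, was called higher without DMSO 3, at 0.61 (edgeR adjusted p = 0.00351). Without DMSO 3, 39 of the 138 genes were called higher and 5 lower, against 10.8% and 11.1% of all genes. When any other library was left out, 1 to 5 of the 138 were called higher, against 0.334% to 1.73% of all genes. Of the changes named here those of CDC25A and ARHGEF2 were called whichever library was left out. ESCO2 lost its call without inhibitor 1 alone (edgeR adjusted p = 0.0521), and the others without at least 4 of the 6 libraries in turn, with edgeR adjusted p up to 0.212.

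In DNA replication and the G1/S transition, which come before mitosis in the cell cycle, 11 of 36 tested genes were called higher and none lower, against 1.95% and 1.92% of all genes, with a median log2 fold change of 0.20. E2F2 and CCNE2, a transcription factor and the cyclin E2 gene, rose by 1.75 (SE 0.364) and 1.20 (SE 0.217). Without DMSO 3, 15 of these 36 genes were called higher and 1 lower, beside 15 of 40 mitosis members higher, against 10.8% and 11.1% of all genes. When any 1 of the inhibitor libraries or DMSO 2 was left out, 1 to 3 of the 36 were called higher. Over all genes, 0.334% to 0.645% were called higher in those fits. E2F2 lost its call without inhibitor 1, inhibitor 3 or DMSO 2, and CCNE2 without inhibitor 2, inhibitor 3 or DMSO 2, with edgeR adjusted p between 0.0524 and 0.0932. For the members the median GC content was 44.1%, against 50.5% for the replication genes. In DMSO 3, 24 of 40 members and 9 of 36 replication genes were higher than in both other controls. Lower than in both were 12 of 40 members and 19 of 36 replication genes. Of all tested genes, 41.2% were higher and 41.2% lower. Whether the 2 groups of genes differ in response was not tested.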

How the data were processed

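The authors deposited raw counts per gene symbol, 1 file per library, per the labels and the whole-number values. The Ion AmpliSeq panel and an Ion Torrent Proton were used, per the labels' protocols. HTSeq, DESeq2 1.20.0 and hg19 are named, without their roles, in the submitters' processing notes. Which aligner was run is not given in the sources used. PCR products without molecular identifiers are not independent molecules. Differences in amplification that follow GC content can enter such counts, and whether they did here was not tested.

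Genes were kept by filterByExpr (minimum count 10, minimum total 15), scaled by TMM and tested with edgeR 4.0.16 (quasi-likelihood, group only, Benjamini-Hochberg threshold 0.05) in R 4.3.3. The SE is the absolute log2 fold change divided by the square root of F. Log2 CPM used a prior count of 2. Fits were also run on simulated counts. Those counts held neither a deviating library nor a GC trend, so they cannot show how the fits handle either. Alternatives were other scalings and filters, DESeq2 1.42.0, limma 3.58.1 (voom, also with library quality weights), a replicate block, leaving out each library, and removal of each library's GC trend (loess span 0.5; GENCODE 29 transcripts, matched for 99.2% of tested genes). The last of these combined with leaving out DMSO 3 was added after seeing the data. Replicates differed beyond counting noise (chi-square per degree of freedom 5.17 to 36.7).

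The members and lists were chosen with earlier results of these data known. Values in every library are given for called members, for the 2 members of each role with the largest change, for classes of 3 or fewer, and for CCNB1, CDK1, PLK1, MKI67, TOP2A and FOXM1, and ASPM was added after its values were seen. Of other lists, up to 2 called genes are named. One listed symbol, KIF18B, was not found by name in the files used here.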

Additional observations from a re-analysis of the deposited data

How the results depend on the processing

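The median log2 fold change of the members stayed above 0 in all 17 alternatives, between 0.18 and 0.304, and moved by less than the spread between libraries (SD 0.108). The count of called members depended on single libraries, 0 to 15 higher and none lower when 1 library was left out, in 0 to 8 of the role classes. It was 1 (ANLN, in 1 class) with a mean count of at least 50, since CDC20 reached an edgeR adjusted p of 0.0526, and 13 higher and 1 lower (KIF14), in 8 classes, with library quality weights, against 12.4% of genes higher. With the GC trend removed and DMSO 3 left out it was 10 higher and 1 lower, in 8 classes. The cause was not tested. Over all genes, leaving out 1 library gave 38 to 1227 higher and 61 to 1269 lower. Library totals alone gave 335 higher. No filter gave 395 higher and 436 lower, quality weights 1387 and 1219, the GC trend removed 377 and 356, that with a replicate block 385 and 364, and that with DMSO 3 left out 1132 and 1116. In the other mitosis lists, leaving out 1 library gave 1 to 39 higher and 1 to 5 lower, quality weights 38 and 4, the GC trend removed with DMSO 3 left out 28 and 5, no filter 2 lower, and the replicate block 5 higher. In the DNA replication list, leaving out 1 library gave 1 to 15 higher and 0 to 1 lower. Whether the replicate numbers pair the samples is not stated. Correlations of deviations were -0.0414, -0.0378 and -0.0882 for the same number, and -0.0844 to 0.1155 for different numbers. With so few libraries these values cannot settle the pairing. The replicate block called the same 2 members, CDC20 at 0.62 and ANLN at 0.55 on the log2 scale.

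Members near 0 changed sign. ASPM was at 0.0389 with library totals, 0.065 with the replicate block, 0.0787 by limma-voom, 0.27 when libraries were weighted by quality, 0.24 with the GC trend removed and DMSO 3 left out, and -0.254 to 0.402 with 1 library left out. PTTG1 was at 0.0273, 0.0115 and 0.185 with library totals, limma-voom and quality weights, 0.182 with the GC trend removed and DMSO 3 left out, and -0.181 to 0.24 with 1 library left out. MAD2L1 was at -0.0085 with the GC trend removed, -0.00508 with the replicate block added, -0.123 with DMSO 3 left out as well, and -0.0123 to 0.137 with 1 library left out. NUF2 and NUSAP1 were at -0.00449 and -0.0557 with the GC trend removed and DMSO 3 left out. With 1 library left out, NEK2 ranged from -0.219 to 0.431, CENPE from -0.516 to 0.0543 and FOXM1 from -0.0105 to 0.149. The members with the fewest counts, down to 45 in a library, carry the largest counting error.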
